A study of Mus musculus with 6 samples.

Results

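The genes described here encode 20 integrin chains (12 α and 8 β) and 10 laminin chains, 30 of the 54446 genes listed in the count matrices. They were taken by symbol, and all 30 identifiers, without version, were found in the mouse GENCODE M21 annotation (GRCm38). Expression was measured by droplet-based 5′ single-cell RNA sequencing in 6 libraries of cultured mouse glioma cells. GL261, an established mouse glioma line, was represented by 2 libraries of cells grown in a differentiation medium with fetal calf serum. GL261-GSCs, glioblastoma stem cells derived from that line, were represented by 4 libraries of cells grown in a defined stem cell medium. The labels name no edited gene and no drug, so the groups share their genotype of origin and differ in derivation and in medium at once. Cells and neurospheres were freed with Accutase and put through a buffer with the detergent IGEPAL CA-630 before capture, and the labels speak of cells or nuclei without saying which. The labels do not say whether the libraries of a group came from separate cultures, so the p-values below measure the spread between libraries, which may be technical.

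Integrins are transmembrane receptors made of an α and a β chain. Their outer parts bind matrix proteins or counter-receptors and their tails recruit talin, kindlin and other proteins that couple them to the actin cytoskeleton. Laminins are secreted trimers of an α, a β and a γ chain that build the basement membrane and are themselves ligands of several integrins. In the brain, basement membrane surrounds the vessels and covers the surface, and glioma cells are known to use integrins to attach to and move along these structures.

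Each library gave 4264 to 7275 called cells holding 33320530 to 79472306 unique molecular identifiers (UMIs, each counting a captured transcript), which were added up per library. Levels are CPM, UMIs scaled to a common library total after TMM normalization. The median number of UMIs per cell in GL261 was 15478 and 13652, against 15375, 11890, 10638 and 6670 in replicates 1 to 4 of GL261-GSCs. Pairs of libraries shared 32 to 59 called barcodes, against 26.1 to 57.9 given by chance. The glial progenitor markers fixed for the GL261-GSCs label (Sox2, Olig2, Olig1, Pdgfra, Fabp7 and Ptprz1) summed to 1145 to 2408 CPM in GL261-GSCs and to 72.5 to 77.2 CPM in GL261. Most of the GL261 sum was Sox2, at 66.8 and 67.5 CPM, against 81.7 to 141 CPM in GL261-GSCs. Of the markers of other cell types, 7 of 9 for microglia and macrophages, 4 of 5 for endothelium, 5 of 5 for lymphocytes, 2 of 3 for platelets and 3 of 5 for fibroblasts and pericytes stayed under 1 CPM in every library. The microglia list summed to 13.6 to 14.1 CPM in GL261, against 1.04 to 2.20 CPM in GL261-GSCs, and the fibroblast list to 10.1 to 11.1 CPM against 22.6 to 202 CPM. These sums came mainly from Csf1r in GL261 (12.9 and 12.6 CPM) and from Col3a1 in GL261-GSCs (22.3 to 201 CPM). Pdgfrb, also on the fibroblast list, went the other way from Col3a1. It was at 4.93 and 5.05 CPM in GL261 and at 0.0152 to 0.175 CPM in GL261-GSCs (log2 fold change -5.40, adjusted p = 0.00109, edgeR). Cldn5 had no UMI in any library, and Ptprc and Cdh5 stayed under 0.5 CPM.

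**Figure D1:**
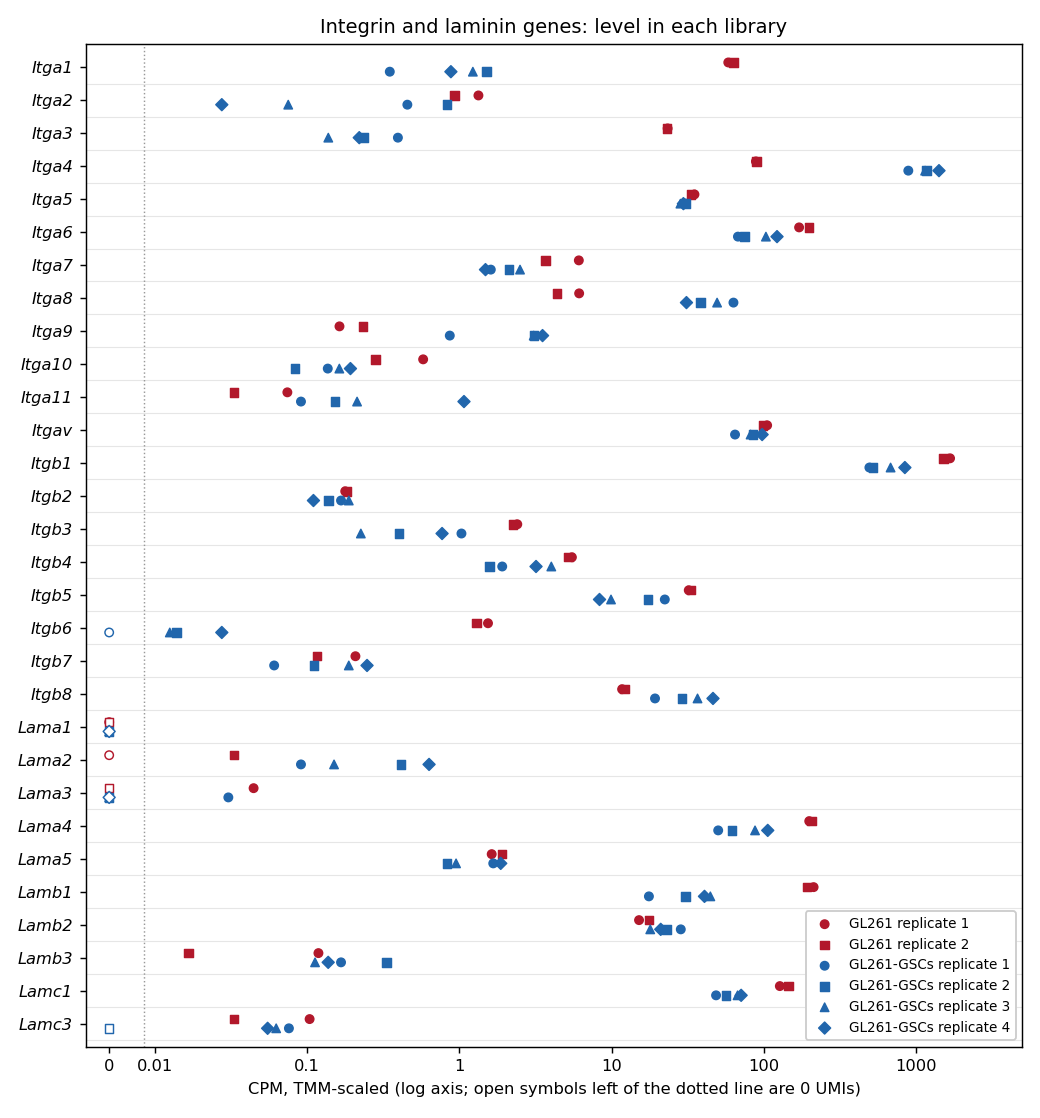
Level of each of the 30 genes in each of the 6 libraries, in TMM-scaled CPM on a log axis, with colour for the group, symbol shape for the replicate and open symbols for 0 UMIs. Itga4 lies at 88.7 to 89.7 CPM in GL261 and at 889 to 1415 CPM in GL261-GSCs, while Itga1, Itga3 and Itgb6 lie far to the left in GL261-GSCs.

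The integrin and laminin genes called as different were mostly lower in GL261-GSCs, with a small set of α chains and Itgb8 going the other way. Of the 30 genes, 27 passed the filter on low counts, and 15 of these differed at an adjusted p under 0.05 in edgeR's quasi-likelihood test: 4 were higher (Itga4, Itga8, Itga9 and Itgb8) and 11 were lower (Itga1, Itga3, Itga6, Itga7, Itga10, Itgb1, Itgb3, Itgb6, Lama4, Lamb1 and Lamc1). The background of this comparison was high: 29.9% of all 18439 genes passed, 15.8% upward and 14.1% downward. The median log2 fold change was -1.0 over the 27 genes and 0.04 over all genes tested. Library values of the groups did not overlap for 23 of the 27, 7 higher and 16 lower, where 56.7% of all genes did not overlap (28.7% higher and 28% lower). In sums over a library, fewer expressing cells and less RNA per cell cannot be told apart. Scaling by library size alone moved the median of all genes to 0.18 and the split of all calls from 2920 higher and 2594 lower to 3491 higher and 2034 lower (18.9% and 11%); the 4 higher genes were called there too, and of the 11 lower genes Itga6 and Itga10 were not. The count rested on having both GL261 libraries: 7 genes were called without GL261 replicate 1 (10.3% of all genes) and 8 without GL261 replicate 2 (9.3% of all genes).

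**Figure D2:**
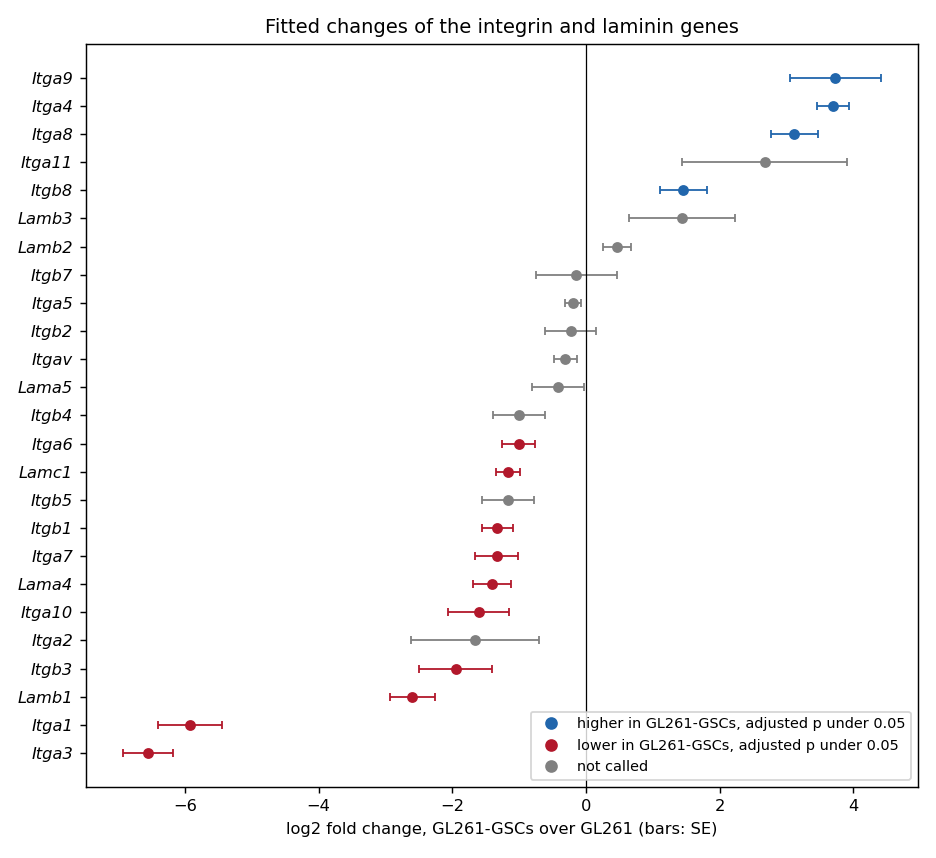
Fitted log2 fold change, GL261-GSCs over GL261, with its SE as bars, for 25 of the 27 tested genes (Itgb6 and Lama2, with 3 and 2 UMIs in a group, are given as ratios in the text). Itga9, Itga4, Itga8 and Itgb8 are the called genes to the right of 0, and Itga3 and Itga1 lie farthest to the left.

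The promoters of 2 genes that rose and 2 that fell are shown to let the regulatory sequence be read beside the change. They are the 250 bases before the RefSeq transcription start on GRCm38.p6, written 5′ to 3′ on the strand of the gene, with matches to the Sp1 motif GGGCGG (on either strand) in capitals. Itga4 lies at chr2:79255176-79255425 (plus strand), Itga8 at chr2:12301945-12302194 (minus strand), Itga1 at chr13:115101965-115102214 (minus strand) and Lamb1 at chr12:31265043-31265292 (plus strand).
Itga4: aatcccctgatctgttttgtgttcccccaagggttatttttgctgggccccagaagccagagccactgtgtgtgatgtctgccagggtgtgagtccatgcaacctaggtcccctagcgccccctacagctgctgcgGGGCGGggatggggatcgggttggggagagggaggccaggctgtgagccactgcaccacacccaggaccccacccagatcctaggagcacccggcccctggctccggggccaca
Itga8: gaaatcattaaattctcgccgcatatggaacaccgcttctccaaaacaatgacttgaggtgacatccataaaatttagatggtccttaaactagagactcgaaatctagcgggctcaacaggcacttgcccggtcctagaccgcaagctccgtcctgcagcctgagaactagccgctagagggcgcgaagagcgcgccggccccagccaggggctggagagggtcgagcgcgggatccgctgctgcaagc
Itga1: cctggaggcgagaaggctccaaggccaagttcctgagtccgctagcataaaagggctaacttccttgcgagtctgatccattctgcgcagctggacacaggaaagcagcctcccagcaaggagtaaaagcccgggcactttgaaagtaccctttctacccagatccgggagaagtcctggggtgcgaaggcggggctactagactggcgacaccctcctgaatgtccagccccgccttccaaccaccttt
Lamb1: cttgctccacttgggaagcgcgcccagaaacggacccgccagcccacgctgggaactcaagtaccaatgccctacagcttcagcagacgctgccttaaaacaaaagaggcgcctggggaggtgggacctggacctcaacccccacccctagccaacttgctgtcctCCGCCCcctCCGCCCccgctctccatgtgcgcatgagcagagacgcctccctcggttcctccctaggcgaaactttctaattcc
In these 4 windows the Sp1 motif begins 114 bases before the start of Itga4 (-114) and 84 and 75 bases before that of Lamb1 (-84 and -75), and neither AP-1 (TGANTCA), TEAD (GGAATG) nor the CArG box was found. RefSeq windows of 300 bases (250 before to 50 after the start) were at hand for 20 of the 30 genes, 23 windows in all. The Sp1 motif was in 11 of the 23 (47.8%, against 35.7% of 32851 windows of all genes), the TEAD motif in 3 (13.0% against 14.7%), the AP-1 motif in 2 (8.70% against 7.81%) and the CArG box in 2 (8.70% against 1.63%). A match describes letters only.

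Among the α chains, the related chains Itga4 and Itga9 and the RGD-binding chain Itga8 rose, the 3 laminin-binding chains Itga3, Itga6 and Itga7 all fell, and the collagen-binding chains fell (Itga1 and Itga10) or were not called (Itga2 and Itga11). Itga4, whose product pairs with β1 to bind fibronectin and VCAM-1, stood at 88.7 and 89.7 CPM in GL261 and at 889, 1168, 1147 and 1415 CPM in GL261-GSCs. The lowest GL261-GSCs library was far above both GL261 libraries. The change was 12.9-fold (log2 fold change 3.69, SE 0.24, n = 2 and 4, adjusted p = 0.000159, edgeR) and rests on 11401 UMIs of GL261 and 286436 UMIs of GL261-GSCs. Itga8, the α chain of a receptor for nephronectin, stood at 6.12 and 4.37 CPM in GL261 and at 63.1, 38.4, 49.3 and 31.0 CPM in GL261-GSCs. All 4 GL261-GSCs libraries were above both GL261 libraries (log2 fold change 3.12, SE 0.35, adjusted p = 0.00125, edgeR). Itga9, whose product binds tenascin-C and osteopontin, was a rare transcript in both groups, with 25 UMIs in GL261 against 655 in GL261-GSCs. Its levels were 0.163 and 0.232 CPM in GL261 and 0.864, 3.09, 3.08 and 3.52 CPM in GL261-GSCs (log2 fold change 3.73, SE 0.68, adjusted p = 0.00783, edgeR), and the call was lost without either GL261 library.

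The collagen receptor chain Itga1 fell from 58.4 and 63.1 CPM in GL261 to 0.349, 1.50, 1.23 and 0.879 CPM in GL261-GSCs. The groups did not overlap (log2 fold change -5.92, SE 0.48, adjusted p = 0.000354, edgeR). Pelo, which overlaps Itga1 on the same strand, averaged 27.8 CPM in GL261 and 25.8 CPM in GL261-GSCs. Itga3, which with β1 forms a laminin receptor, fell from 23.3 and 23.1 CPM to between 0.138 and 0.394 CPM (log2 fold change -6.55, SE 0.37, adjusted p = 0.000104, edgeR); it lies just under the level set for genes described in full and was singled out after its values were seen. Itga6, the laminin receptor chain used as a surface marker of glioma stem cells, was at 170 and 199 CPM in GL261 and at 67.6, 74.4, 103 and 122 CPM in GL261-GSCs. It was lower in the GL261-GSCs libraries (log2 fold change -1.01, SE 0.25, adjusted p = 0.0234, edgeR). The Itga6 call was lost in 5 of 19 other settings, among them library size scaling and leaving out either GL261 library. Itga7, a further laminin receptor chain, was at 6.09 and 3.68 CPM in GL261 and 1.61, 2.11, 2.50 and 1.48 CPM in GL261-GSCs (log2 fold change -1.34, SE 0.32, adjusted p = 0.0202, edgeR), and the call was lost without either GL261 library.

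The fibronectin receptor chain Itga5 and the αv chain Itgav, which pairs with several β chains, were not called. Itga5 was at 35.0 and 33.1 CPM in GL261 and 28.3 to 30.9 CPM in GL261-GSCs (log2 fold change -0.19, SE 0.12, adjusted p = 0.252, edgeR). Itgav was at 105 and 98.8 CPM in GL261 and at 64.7, 85.1, 81.8 and 97.4 CPM in GL261-GSCs. All 4 of the latter were below both GL261 libraries, but the difference missed the threshold (log2 fold change -0.31, SE 0.17, adjusted p = 0.216, edgeR). The remaining α chains were rare: Itga2, Itga10 and Itga11 stayed under 1.4 CPM in every library, and only Itga10, with 56 UMIs in GL261 against 35 in GL261-GSCs, was called (adjusted p = 0.0388, edgeR), a call lost in 10 of 18 other settings.

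The make-up of the α chains turned over. Itga4 gave 17.9% and 17.4% of all UMIs from the 12 α chain genes in GL261, against 79.5%, 83.1%, 80.9% and 83.1% in GL261-GSCs, a difference in means of 64.0 percentage points. Itga6 gave 34.4% and 38.5% in GL261, against 5.30% to 7.28% in GL261-GSCs, and Itgav gave 21.2% and 19.1%, against 5.72% to 6.06%. Shares of a class add to 100%, so the rise of Itga4 alone lowers the others; the level of Itgav itself was not called. Capture can differ between transcripts, so each share is compared with the share of the same gene in the other group. Together the α chain genes summed to 506 ± 14.6 CPM (SD, n = 2) in GL261 and 1411 ± 238 CPM (SD, n = 4) in GL261-GSCs, and the β chain genes to 1647 ± 113 CPM (SD, n = 2) and 686 ± 168 CPM (SD, n = 4). The ratio of the means was thus 2.79 upward for α chains and 2.40 downward for β chains. The α sum turned on Itga4: the other 11 α chains together were at 416 ± 13.9 CPM (SD, n = 2) in GL261 and 256 ± 27.3 CPM (SD, n = 4) in GL261-GSCs, a ratio of 1.63 downward. With 15 splits of 6 libraries, 0.133 is the lowest p of an exact 2-sided permutation test, so no such single value could reach 0.05; these class sums and the shares named here all gave 0.133 (0.184 for the shares after Benjamini-Hochberg adjustment over 29 chains).

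**Figure D3:**
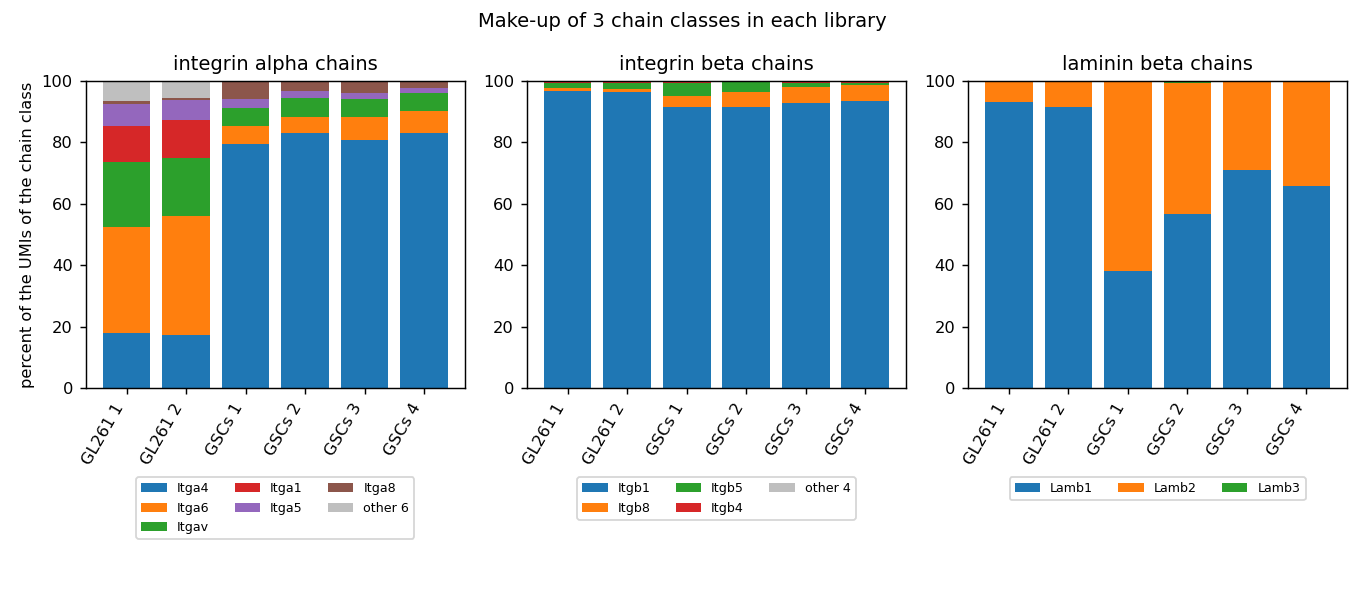
Make-up of the integrin α, integrin β and laminin β chain classes in each library, each bar adding to 100% of the UMIs of the class. Itga4 fills 17.4% to 17.9% of the first panel in GL261 and 79.5% to 83.1% in GL261-GSCs, and Lamb2 fills 28.7% to 61.6% of the third panel in GL261-GSCs.

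Among the β chains, Itgb1, Itgb3 and Itgb6 fell and Itgb8 rose. Itgb1, the common partner of most of the α chains above, was at 1673 and 1513 CPM in GL261 and at 494, 522, 680 and 844 CPM in GL261-GSCs. All 4 GL261-GSCs libraries were below both GL261 libraries (log2 fold change -1.33, SE 0.23, adjusted p = 0.00671, edgeR). The GL261-GSCs libraries differed 1.71-fold among themselves, and the call was lost without GL261 replicate 1. Itgb8, which with αv binds latent TGF-β, was at 11.7 and 12.2 CPM in GL261 and at 19.3, 29.0, 36.7 and 46.3 CPM in GL261-GSCs. The groups did not overlap although the GL261-GSCs libraries differed 2.40-fold among themselves (log2 fold change 1.46, SE 0.35, adjusted p = 0.0206, edgeR), and the call was lost on leaving out GL261 replicate 1, GL261 replicate 2 or GL261-GSCs replicate 3. Itgb6, another αv partner typical of epithelia, had 104 and 78 UMIs in the GL261 libraries and 0, 1, 1 and 1 in the GL261-GSCs libraries. Scaled to TMM-normalized library sizes, its level in GL261 was 120.9 times that in GL261-GSCs (95% counting interval 40.7 to 592, edgeR adjusted p = 0.000334). Itgb3 was at 2.40 and 2.25 CPM in GL261 and at 0.225 to 1.03 CPM in GL261-GSCs (adjusted p = 0.0362, edgeR), a call lost in 5 of 19 other settings. Itgb5 lay at 32.1 and 33.2 CPM in GL261 and at 22.4, 17.4, 9.91 and 8.32 CPM in GL261-GSCs and just missed the threshold (log2 fold change -1.17, SE 0.38, adjusted p = 0.0600, edgeR), but was called in 8 of 19 other settings. Itgb4, the hemidesmosome chain, was at 5.20 to 5.48 CPM against 1.57 to 4.01 CPM (adjusted p = 0.0975, edgeR). The leukocyte chains Itgb2 and Itgb7 stayed under 0.25 CPM in every library.

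Of the laminins, 7 of 10 genes were tested and 3 were called, all lower in GL261-GSCs (14.1% of all genes were lower). Lama4, Lamb1 and Lamc1 encode the chains of laminin α4β1γ1, a laminin of vessel walls. Lama4 was at 199 and 206 CPM in GL261 and at 50.1, 61.7, 87.5 and 106 CPM in GL261-GSCs (log2 fold change -1.41, SE 0.28, adjusted p = 0.0116, edgeR). Lamb1 was at 212 and 192 CPM in GL261 and at 17.6, 30.7, 44.5 and 40.7 CPM in GL261-GSCs (log2 fold change -2.60, SE 0.33, adjusted p = 0.00200, edgeR). Lamc1 was at 127 and 145 CPM in GL261 and at 48.5, 56.5, 67.2 and 70.9 CPM in GL261-GSCs (log2 fold change -1.17, SE 0.17, adjusted p = 0.00363, edgeR). For all 3 the highest GL261-GSCs library was below the lowest GL261 library; the Lama4 call was lost without either GL261 library. Lamb2, the other widely used β chain, was at 15.1 and 17.5 CPM in GL261 and at 28.5, 23.0, 17.9 and 21.0 CPM in GL261-GSCs and was not called (log2 fold change 0.47, SE 0.21, adjusted p = 0.137, edgeR). Lamb1 gave 93.3% and 91.6% of laminin β UMIs in GL261, against 38.0%, 56.8%, 71.2% and 65.8% in GL261-GSCs, a difference in means of -34.5 percentage points (exact permutation p = 0.133). The other laminin genes were rare. Lama1 had no UMI in the called cells of any library, which allows up to 0.0375 to 0.0824 CPM (3 counts per library), and 1 UMI among all barcodes of GL261-GSCs replicate 2; Lama3 had 3 UMIs in GL261 against 2 in GL261-GSCs, and Lamc3 had 9 against 12. Lama2 had 2 UMIs in GL261 against 71 in GL261-GSCs, a ratio of 17.8 (95% counting interval 4.75 to 150) that missed the threshold (adjusted p = 0.0502, edgeR) but was called in 8 of 16 other settings, and Lama5 and Lamb3 stayed under 2 CPM and were not called.

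Read as receptors, the RNA of every chain reached at least 5 CPM in every library of a group for 9 of 18 textbook integrins in GL261 and for 7 in GL261-GSCs. Both groups held the pairs α4β1, α5β1, α6β1, αvβ1, αvβ5 and αvβ8. GL261 held in addition α1β1, α3β1 and α6β4, and GL261-GSCs held in addition α8β1. At 10 CPM the counts were 8 and 6: GL261 lost α6β4, whose Itgb4 was at 5.20 CPM in replicate 2, and GL261-GSCs lost αvβ5, whose Itgb5 was at 8.32 CPM in replicate 4. The α6β4 difference thus rested on the level chosen. At 2 CPM they were 12 and 7, and all 7 were among the 12: α8β1 was then held by GL261 too, whose Itga8 was at 4.37 CPM in replicate 2. Of 8 laminin trimers, α4β1γ1 and α4β2γ1 met the 5 CPM level in both groups. RNA of all chains does not show that the protein complex is present.

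Differences between the groups were also seen in the share of cells with a UMI, after each cell was thinned to 2000 UMIs so that depth was equal. No cell was left out. The thinned shares named here, except those of Itgav, gave the lowest possible exact permutation p of 0.133 (0.193 after Benjamini-Hochberg adjustment over 29 chains). Thinning makes depth equal but not the mix of cells described below. Mean thinned Itgb1 shares were 94.4% in GL261 and 89.3% in GL261-GSCs in cells under 10% ribosomal-protein UMIs (exact permutation p = 0.267). In the other cells they were 87.3% and 61.6% (exact permutation p = 0.133). Itga4 was found in 14.8% and 15.2% of GL261 cells and in 73.2%, 81.5%, 78.4% and 84.8% of GL261-GSCs cells. Going by barcodes of at least 100 UMIs that stayed under 1000 UMIs, free RNA would place Itga4 in 0.650% and 0.544% of GL261 cells and in 7.09%, 9.19%, 15.6% and 27.5% of GL261-GSCs cells. Itga4 shares were above this estimate in every library, although the CPM of Itga4 in those small barcodes was 0.696 to 1.14 times that in cells (above 1 in GL261-GSCs replicate 3), so the estimate rests on how few UMIs such a barcode holds. Itgb1 was found in 87.9% and 88.2% of GL261 cells and in 60.6%, 64.0%, 70.9% and 77.6% of GL261-GSCs cells, against 3.15% to 17.0% from free RNA. Itga1 was found in 10.2% and 11.1% of GL261 cells and in 0.0469% to 0.324% of GL261-GSCs cells, against 0.218% to 0.298% and 0.00369% to 0.0117% from free RNA. Itga8 was found in 1.35% and 0.920% of GL261 cells and in 6.27% to 11.8% of GL261-GSCs cells, against 0.0349% to 0.0502% and 0.311% to 0.643% from free RNA, although its CPM in those small barcodes was 0.742 to 0.952 times that in cells. At this depth Lama4, Lamb1 and Lamc1, each taken alone, were found in a minority of cells in both groups. Lamb1 was found in 30.7% and 28.1% of GL261 cells and 3.49% to 10.0% of GL261-GSCs cells, Lama4 in 10.6% to 24.2% of GL261-GSCs cells where the GL261 libraries had 95% intervals of 28.7% to 31.3% and 28.8% to 31.3%, and Lamc1 in 21.1% and 22.8% against 10.4% to 17.8%; free RNA would place each of the 3 in 0.0946% to 2.04% of cells. Without thinning, Itga4 was found in 58.0% to 59.2% of GL261 cells and in 97.3% to 98.6% of GL261-GSCs cells. For Itgb1 the unthinned shares overlapped, at 98.4% and 98.6% of GL261 cells and 95.4% to 98.5% of GL261-GSCs cells (exact 2-sided permutation p = 0.267). The unthinned means for Lama4, Lamb1 and Lamc1 were 80.6%, 79.8% and 70.7% of GL261 cells, which is most of them, against 49.9%, 24.0% and 45.1% of GL261-GSCs cells. Unthinned shares also depend on depth, which differed between the libraries, and the free RNA shares above are for thinned cells. For Itgav the shares overlapped, at 18.3% and 16.9% in GL261 and 12.7% to 22.8% in GL261-GSCs, and the sign of their small difference changed with the setting. The sign also changed for Itga5, whose mean thinned shares were 6.05% in GL261 and 6.62% in GL261-GSCs, against 33.3% and 26.8% without thinning. In cells under 10% ribosomal-protein UMIs its thinned means were 13.6% and 11.6%, and in the other cells 5.66% and 4.74%.

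**Figure D4:**
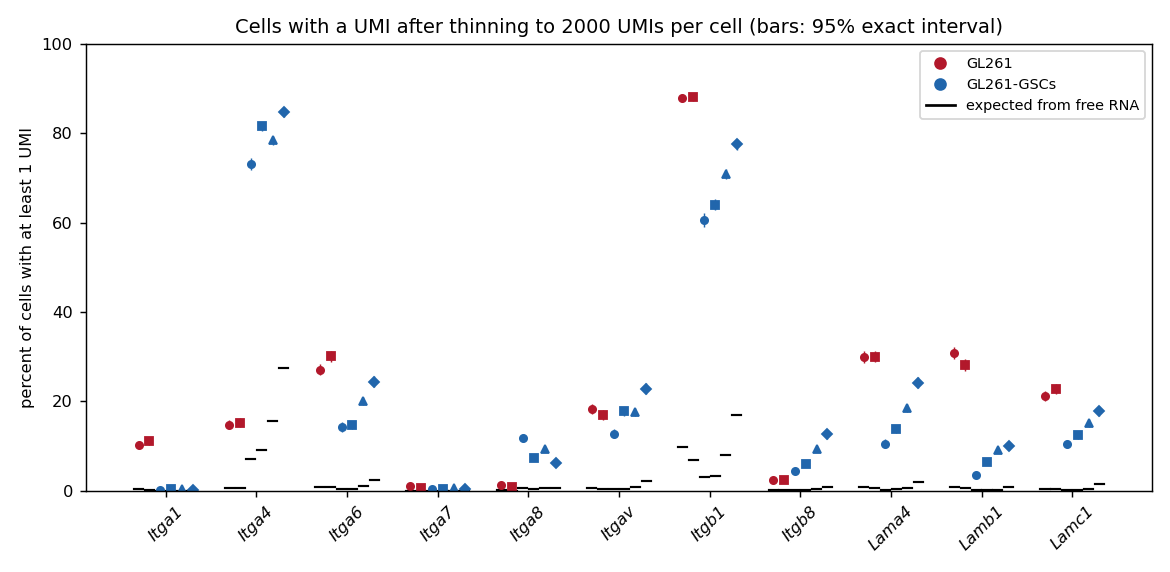
Percent of called cells with at least 1 UMI after thinning each cell to 2000 UMIs, per library (circle, square, triangle and diamond for replicates 1 to 4) with 95% exact binomial intervals, which cover counting error only; black dashes give the share that free RNA would give. In GL261-GSCs, Itga4 lies at 73.2% to 84.8%, above both GL261 libraries, and Itgb1 at 60.6% to 77.6%, below both.

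Within each library these genes were unevenly spread over cells that differed in ribosomal-protein RNA. The ribosomal-protein share of a cell's UMIs had 2 peaks, and a line at 10%, drawn after the values were seen, put 10.9% and 8.20% of GL261 cells and 19.9%, 14.5%, 27.3% and 42.8% of GL261-GSCs cells below it; 1.92% to 6.63% of cells lay between 8% and 12%. Cells below the line were shallower (median 3678 to 7247 UMIs against 9485 to 16841) and had more mitochondrial UMIs (median 3.83% to 5.17% against 0.924% to 1.10%). All integrin and laminin genes with a mean of at least 8 CPM in a group, 13 in GL261 and 12 in GL261-GSCs, had a higher CPM in these cells in every library of that group. Their median ratio was 2.86 to 3.51 across libraries, where the median over the 9163 to 9430 genes of that level was 1.31 to 1.44 and 65.8% to 69.0% of those genes were above 1. Lama4 had the ratios 3.93 and 4.13 in GL261, against 3.88, 4.05, 4.39 and 4.07 in GL261-GSCs. For Itgb5 they were lower, 1.52 to 2.19. What sets these cells apart was not tested.

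**Figure D5:**
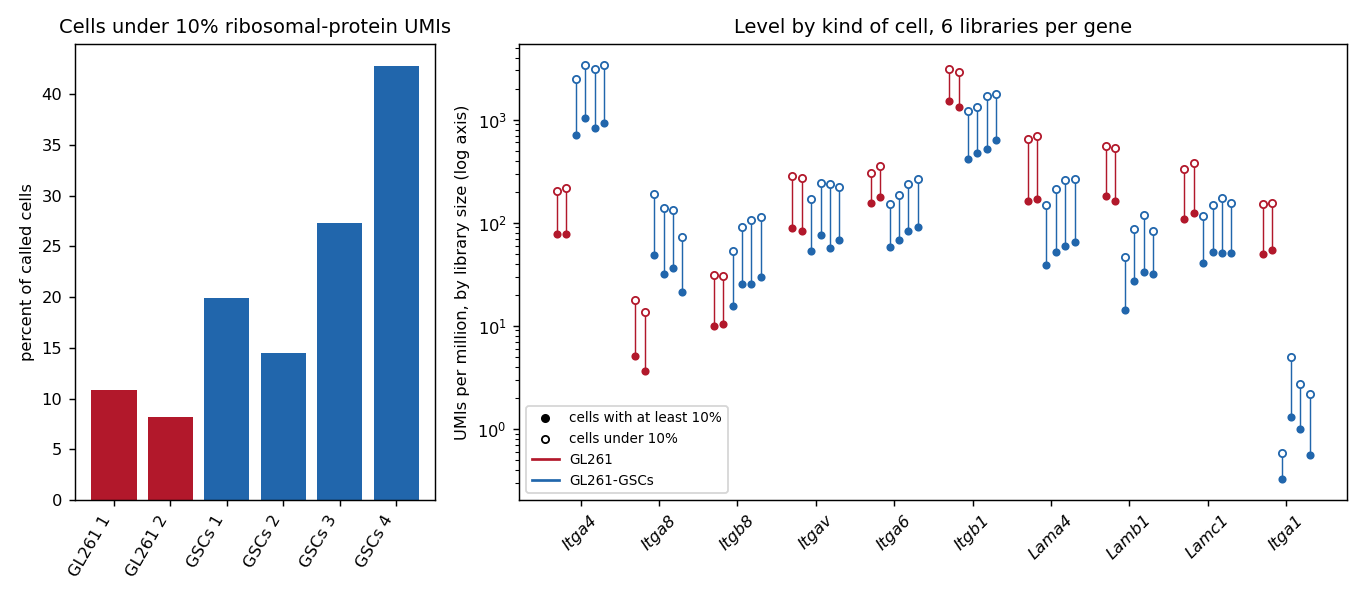
Left, percent of called cells with under 10% ribosomal-protein UMIs in each library; right, CPM (by library size, log axis) of 10 of the genes in cells under 10% (open) and at or above 10% (filled), with a line joining the values of a library. The open symbol is above the filled one for all 10 genes in all 6 libraries, although Itga1 in GL261-GSCs rests on 4 to 30 UMIs in the cells under 10%.

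The differences between the groups were also present in the cells with at least 10% ribosomal-protein UMIs alone. There Itga4 was at 79.4 and 80.2 CPM in GL261, against 691, 972, 858 and 926 CPM in GL261-GSCs (log2 fold change 3.43, SE 0.19, adjusted p = 8.70e-05, edgeR). Itgb1 had a log2 fold change of -1.53, Lama4 of -1.69, Lamb1 of -2.76 and Lamc1 of -1.34. In this subset 17 of 26 tested integrin and laminin genes were called (32.3% of all genes were). They were the 15 called over all cells, Itgav (log2 fold change -0.52, adjusted p = 0.0388, edgeR) and Itgb5 (adjusted p = 0.0430). The 15 were chosen as called in the same libraries, and this subset holds most of their cells, so their return is no separate evidence. In the cells under 10%, 12 of 21 tested genes were called (23.9% of all genes were), all among the 15. Itga6 and Itgb3 missed the threshold there, and Itga10 had too few UMIs to be tested.

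The GL261-GSCs libraries also differed among themselves in these genes. Over the 12 genes with a mean of at least 8 CPM in GL261-GSCs, the median ratio of the highest to the lowest library was 1.76, against 1.45 over 9432 genes of that level. Itga6, Itgb1, Itgb8, Lama4, Lamb1 and Lamc1 were each higher in both replicates 3 and 4 than in both replicates 1 and 2, and Itga5, Itgb5 and Lamb2 were lower. These are 6 and 3 of the 12, where 29.3% of all genes of that level were higher and 38.5% lower in replicates 3 and 4, so such a split was common. In the cells with at least 10% ribosomal-protein UMIs the ratio of the highest to the lowest library was 1.58 for Itgb1 (1.71 over all cells), 1.74 for Lama4 (2.12), 1.29 for Lamc1 (1.46) and 2.42 for Lamb1 (2.53). Of the 12 genes, Itga8 (2.25 against 2.04 over all cells), Lamb2 (1.62 against 1.59) and Itga5 (1.15 against 1.09) had a larger ratio there, and the rest a smaller one. Itga5 varied least, at 1.09 over all cells. With 2 libraries on each side, this was not put to a test.

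Genes that work with integrins fell more often than they rose. Of 71 genes in 4 lists of integrin partners, 68 were tested, and 35 were lower and 5 higher in GL261-GSCs. Among adhesion plaque and activator genes 15 of 25 tested were lower and 0 higher (14.1% and 15.8% of all genes, edgeR), with 17 of the 25 at an unadjusted p under 0.05 in either direction, where 7845 of all 18439 genes were. Library size scaling and DESeq2 each gave 1 higher plaque gene (18.9% and 20% of all genes were higher), and GL261-GSCs replicates 3 and 4 alone gave 5 of 25 higher, where 28.7% of all genes were. Without GL261 replicate 1, 10 plaque genes were lower (5.21% of all genes), and without GL261 replicate 2, 9 were (4.98%). Actn1, an actin crosslinker of adhesion sites, fell from 579 and 671 CPM to 44.5, 44.3, 34.4 and 35.4 CPM (log2 fold change -3.98, SE 0.16, adjusted p = 4.18e-05, edgeR). Its relative Actn4 fell by 2.93 and the ILK-binding adaptor Parva by 2.64 on the log2 scale. The talin gene Tln1 (log2 fold change -0.37, adjusted p = 0.176), the kindlin gene Fermt2 (0.10, 0.768), the kinase gene Ptk2 (0.32, 0.0720) and vinculin, Vcl (-0.23, 0.649), were not called by edgeR. These 4 were picked out for their role after their values were seen and do not stand for the plaque as a whole. The other talin gene, Tln2, was called lower (log2 fold change -0.84, adjusted p = 0.0438, edgeR).

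Ligand genes differed strongly between the groups. Of 19 non-laminin ligand genes tested, 10 were lower and 3 higher (14.1% and 15.8% of all genes). The count of higher ligand genes was 1 without GL261 replicate 1 (5.11% of all genes) and 1 without GL261 replicate 2 (4.31%), 5 with no filter (9.07%) and with DESeq2 (20%), and 7 with GL261-GSCs replicates 3 and 4 alone (28.7%). Fn1, fibronectin, the ligand of the Itga4 and Itga5 receptors, fell from 601 and 682 CPM in GL261 to 2.71, 2.75, 0.725 and 0.659 CPM in GL261-GSCs (log2 fold change -8.52, SE 0.66, adjusted p = 0.000312, edgeR). Thbs1, thrombospondin, fell by 8.77 and Ctgf, a matricellular protein, by 7.93 on the log2 scale. Vcam1, another ligand of the Itga4 receptor, was at 1.50 and 0.828 CPM in GL261 and under 0.2 CPM in GL261-GSCs (adjusted p = 0.00485, edgeR). Spp1, osteopontin, bound by both the Itga4 and the Itga9 receptor, went the other way in its values, at 2.41 and 4.54 CPM in GL261 against 3.96 to 18.3 CPM in GL261-GSCs, but the groups overlapped and it was not called (adjusted p = 0.0691, edgeR). The ligand genes that rose, all outside the rule for named genes, were Npnt, the nephronectin bound by the Itga8 receptor, at 0.222 and 0.166 CPM in GL261 and 4.88, 2.93, 1.18 and 1.37 CPM in GL261-GSCs (log2 fold change 3.73, adjusted p = 0.0116, edgeR), Ltbp1 (4.32, adjusted p = 0.00121) and Fbln1 (6.26, adjusted p = 0.0420). Tnc, tenascin-C, a ligand of the Itga9 receptor, divided the GL261-GSCs libraries, with 26.8 and 75.6 CPM in replicates 1 and 2 and 0.375 and 0.742 CPM in replicates 3 and 4, against 0.133 and 0.0663 CPM in GL261, and was not called (adjusted p = 0.0749, edgeR).

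Of the 14 tested basement membrane and laminin-binding genes, 6 were lower and 2 higher (14.1% and 15.8% of all genes); without GL261 replicate 2, 3 were lower (4.98%) and 1 higher (4.31%), and in cells under 10% ribosomal-protein UMIs 3 of 10 tested were lower (11.3%). Hspg2, the perlecan core protein, fell from 241 and 281 CPM to between 41.7 and 66.0 CPM (log2 fold change -2.36, SE 0.21, adjusted p = 0.000485, edgeR). The 2 that rose, named here although outside the rule, were Ntn1, the guidance cue netrin-1, from 0.0593 and 0.0994 CPM to between 8.51 and 20.3 CPM, and the sarcoglycan gene Sgcb. Dystroglycan, Dag1, a laminin receptor that is no integrin, was at 168 and 169 CPM in GL261 and at 108 to 173 CPM in GL261-GSCs and was not called (adjusted p = 0.278, edgeR). Of 11 membrane partners, 5 were lower (14.1% of all genes) and 0 higher, with 6 of the 11 at an unadjusted p under 0.05 in either direction, against 7845 of all 18439 genes. Only 3 membrane partners were lower with library size scaling (11% of all genes), over all barcodes (13.7%), and without GL261 replicate 1 (5.21%), GL261 replicate 2 (4.98%), GL261-GSCs replicate 2 (12.3%) or GL261-GSCs replicate 3 (10.6%). Higher membrane partners numbered 0 to 2 over the other settings. The 2 of 11 came with GL261-GSCs replicates 3 and 4 alone (28.7% of all genes were higher) and in cells under 10% ribosomal-protein UMIs (12.6%). Tspan4 fell by 1.63, Cd151, the tetraspanin that holds laminin-binding integrins, by 1.42 and Cd9 by 1.10 on the log2 scale; Cd63 and Tspan9 were the other 2, and Cd81 was at 426 and 438 CPM in GL261 and at 464 to 1014 CPM in GL261-GSCs (adjusted p = 0.101, edgeR).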

How the data were processed

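The deposited files hold raw UMI counts per gene and barcode, unfiltered, and come from Cell Ranger 4, per the file headers; mm10 is named in the submitters' processing notes, with counting options not given in the sources used here. Groups and replicate numbers came from the sample titles. A barcode was called a cell if its UMIs reached 10% of the 99th percentile among the 3000 largest barcodes, it held 500 genes or more, and mitochondrial UMIs were under 10%; this set the UMI minimum at 2060 to 3274. Doublets were not removed. UMIs were summed per library and tested over all genes with edgeR 4.0.16 (glmQLFit, glmQLFTest, TMM, filterByExpr, Benjamini-Hochberg, 2-sided, no block, R 4.3.3). Log2 fold changes are of GL261-GSCs relative to GL261, and the SE is the absolute log2 fold change over the square root of F, which can look too precise at few UMIs. No fitted fold is given for 3 or fewer UMIs in a group. For single values, exact permutation tests ran over 15 splits (scipy 1.17.1). On simulated counts of 18439 genes for this comparison, with 200 changed by 2 on the log2 scale and a dispersion of 0.1 for every gene, edgeR recovered 163 with 5 false calls, limma-voom 156 with 7 and DESeq2 1.42.0 161 with 19. In the data 29.9% of genes were called, a far larger part than was changed there, so these counts do not give the false-call rate of the data. Intervals and limits cover counting error only. Replicate numbers were not used to pair the samples, outside the block setting described below.

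The genes and lists were chosen with earlier results of these data known. Full values are given for genes called with an average log2 CPM of 3 or more, and for Itgb1, Itgav, Itga6, Itga7, Itgb8, Lama4, Lamb1 and Lamc1; from each partner list the 3 largest rises and falls called at an average log2 CPM of at least 5 are named. Nid1 stood in 2 partner lists. Marker lists covered microglia and macrophages, endothelium, fibroblasts and pericytes, lymphocytes, platelets, glial progenitors and serum-grown glioma (Vim, Cd44, Acta2 and Tagln, summing to 14530 to 15762 CPM in GL261 and 4408 to 5114 CPM in GL261-GSCs). Most of the last sum was Vim, at 14053 and 15215 CPM in GL261 and 4355 to 5052 CPM in GL261-GSCs. Cd44 was at 149 and 132 CPM against 53.0 to 76.7 CPM. Acta2 was at 235 and 287 CPM against 0.136 to 0.994 CPM, and Tagln at 92.1 and 129 CPM against 0.0414 to 0.388 CPM. The split by ribosomal-protein UMIs and the level of 8 CPM within a group were added after seeing the data; other alternatives changed scaling, filter, tool, cell calling, thinning and the libraries used. Protein sequences were not analysed here.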

Additional observations from a re-analysis of the deposited data

Results flagged for a closer look

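In groups of 4 libraries a single value was looked for that stood far from the others (a gap beyond Dixon's 95% critical value). Of 27 genes looked at in GL261-GSCs, 2 had one, where chance gives about 1 in 20. Itga9 was low in GL261-GSCs replicate 1, at 0.864 CPM against 3.08 to 3.52 CPM in the others. Itga11, a collagen receptor chain, was high in GL261-GSCs replicate 4, at 1.07 CPM against 0.0910 to 0.213 CPM, on 39 of its 73 UMIs in GL261-GSCs.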

How the results depend on the processing

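Each call was repeated under 19 other settings (18 for Itga10, not tested in cells under 10% ribosomal-protein UMIs). Itga1, Itga3, Itga4, Itga8, Itgb6, Lamb1 and Lamc1 were called in the same direction in all of them; calls were lost for Itga10 in 10, Itga6 and Itgb3 in 5 each, Itgb8 in 3, Itga7, Itga9 and Lama4 in 2 each and Itgb1 in 1, and no called gene changed direction. Calls were gained for Itgb5 and Lama2 in 8 each, Itgb4 and Lamb2 in 2 each and Itga2, Itga11 and Itgav in 1 each. Leaving out 1 library gave 1817 to 6193 genes called over all genes, 7 to 16 of the integrin and laminin genes (2 to 5 higher, 5 to 11 lower), and 26 to 41 of the partner genes (2 to 6 higher). The low ends came without a GL261 library, where the lone sample was taken to vary like the GL261-GSCs libraries. The shares of all genes called higher and lower without a GL261 library are given above with the ligand and plaque genes. On leaving out 1 GL261-GSCs library, 12% to 18.4% of all genes were called higher and 10.6% to 15.4% lower. With GL261-GSCs replicates 3 and 4 alone, 9881 genes were called and 17 of 68 partner genes were higher (28.7% of all genes were); with replicates 1 and 2 alone, 8 partner genes were higher (20.9% of all genes). In cells under 10% ribosomal-protein UMIs 3299 genes were called. DESeq2 gave 9 higher partner genes (20% of all genes). With the replicate number as a block, 6512 genes (35.3%), 19 of the integrin and laminin genes (all 15 among them) and 9 higher partner genes (18.7% of all genes) were called. Only 2 numbers are shared, so GL261-GSCs replicates 3 and 4 are each fitted by a block term of their own. The group effect then rests on replicates 1 and 2, so this setting largely repeats the fit with GL261-GSCs replicates 1 and 2 alone. Same-numbered libraries deviated from their group means with correlations of -0.0071 and 0.0705. The deviations of 2 GL261 libraries mirror each other, so these correlations cannot show whether the numbers pair the libraries. Among the uncalled fold changes and the share differences of genes described in full, the sign changed for Itgb2 (0.22 over all barcodes), for Itgb7 (0.33 without GL261 replicate 1, 0.13 without GL261-GSCs replicate 1, 0.38 with GL261-GSCs replicates 3 and 4 alone, 0.030 over barcodes with at least 1000 UMIs, 0.32 over all barcodes, and -0.49 to 0.33 on leaving out 1 library) and for the Itgav share difference (-11.1 points without thinning, -8.01 in cells under 10%, -3.10 in cells at or above 10%, -0.59 without GL261 replicate 2, -1.60 without GL261-GSCs replicate 4, and -1.60 to 1.77 on leaving out 1 library); the cause was not tested. Genes under about 1 CPM rest on few UMIs, and 2 GL261 libraries limit every call.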
